A study of Mus musculus with 2 samples.

Results

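Cholinergic neurons of the hindbrain make and release acetylcholine, and most of them are the motor neurons of the cranial nerves. The measurements below concern 10 genes chosen by name, for acetylcholine handling (Chat, Slc18a3, Slc5a7 and Ache), for motor neuron identity (Isl1, Isl2, Mnx1 and Tbx20) and for the cytoskeleton and growth factor response of these cells (Prph and Ret). All 10 were found among the 43346 mouse genes of the deposited tables, 21461 of them nuclear protein-coding genes. The series holds total RNA-seq libraries of whole hindbrain, taken on postnatal day 0 from mice of strain B6NTac;B6NCrl/Lap, with both sexes pooled and the health state given as healthy. It has 1 group of 2 libraries, from separate isolates. Replicate 1 pooled 15 mice, and the size of the pool behind replicate 2 is not stated. One donor entry covers both, so how far the pools differ biologically is not known. In such bulk samples fewer cells of a type cannot be told apart from less RNA per cell.

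In a cholinergic terminal, choline is taken up by the transporter encoded by Slc5a7, joined to an acetyl group by choline acetyltransferase (Chat) and loaded into vesicles by the transporter encoded by Slc18a3. Released acetylcholine is split by acetylcholinesterase (Ache). During development the LIM homeodomain factors Isl1 and Isl2 and the homeodomain factor Mnx1 specify motor neurons. Somatic motor neurons are known for Mnx1, while Tbx20 is known for branchial and visceral motor neurons of the hindbrain.

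Summed over all genes, expected counts came to 54313140 (replicate 1) and 77142270 (replicate 2). Expected counts are estimated fragment counts, and TPM divides them by transcript length and scales the result to the same sum in every library. Nuclear protein-coding genes made up only part of that sum, 28.06% in replicate 1 against 19.25% in replicate 2. Over the 11725 of them at 1 TPM or more in both libraries, the median ratio of TPM, replicate 1 over replicate 2, was 1.44. Every SD of TPM below includes this shared factor. The gene counts of all 10 members were whole numbers in both libraries (within 0.005), so no read was divided between a member and another gene. With 2 libraries an exact sign-flip permutation test cannot go below p = 0.5, so no other p-values are given.

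Levels ran from Ache at the top, with a mean of 50.67 TPM, to Mnx1 at 0.015 TPM. At least 1 TPM in both libraries was reached by 6 of the 10 members (Ache, Prph, Ret, Slc18a3, Isl1 and Slc5a7), against 54.6% of all nuclear protein-coding genes. Chat and Tbx20 passed that level in replicate 1 only. When TPM was rescaled so that nuclear protein-coding genes alone made up that sum, 9 of 10 members passed, against 63.4% of those genes, and Mnx1 alone did not. The median of log2(mean TPM + 0.1) was 1.84 over the members and 1.12 over all nuclear protein-coding genes.

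**Figure D1:**
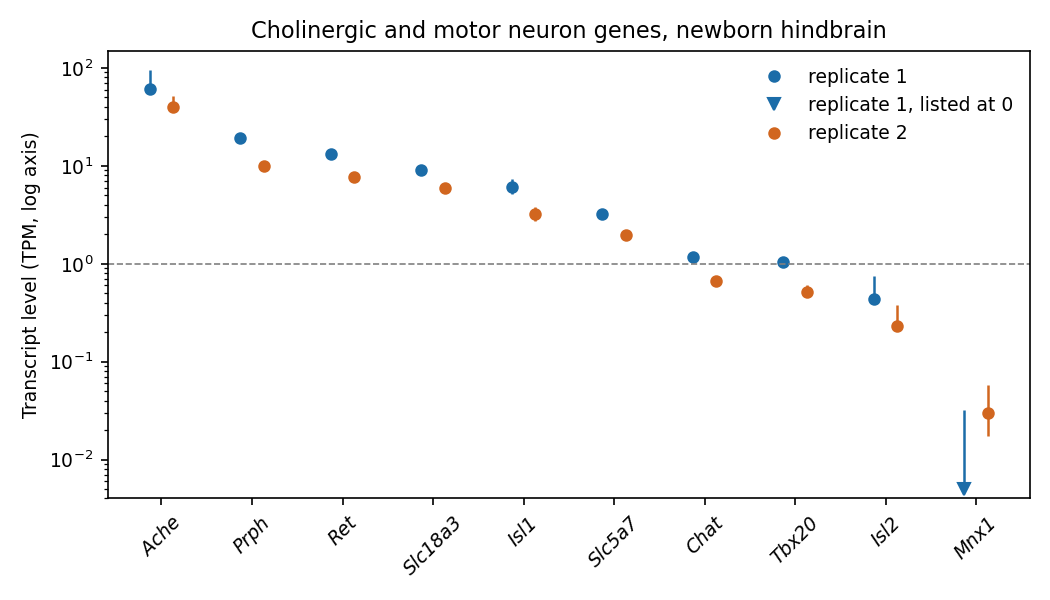
TPM on a log axis for each of the 10 genes in each library, with the interval deposited with each value as a vertical line and a dashed line at 1 TPM. Ache is highest, replicate 1 lies above replicate 2 for every gene but Mnx1, and Mnx1 is listed at 0 in replicate 1 (triangle).

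Among the acetylcholine genes, the enzyme that breaks the transmitter down was by far the most abundant and the enzyme that makes it the least. Chat (chromosome 14, 32408203 to 32465989, minus strand, mm10) had 239 counts and 1.17 TPM in replicate 1 and 278 counts and 0.67 TPM in replicate 2, a mean of 0.92 ± 0.354 TPM (SD, n = 2). Only 42.3% of nuclear protein-coding genes had a lower mean TPM. The choline transporter gene Slc5a7 (chromosome 17, 54273590 to 54299034, minus strand) had 3.23 and 1.96 TPM, a mean of 2.595 ± 0.898. It exceeded Chat in both libraries, by 1.41 ± 0.02 on the log2(TPM + 0.1) scale.

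The vesicular transporter gene Slc18a3 (chromosome 14, 32462438 to 32464850, minus strand) had 8.98 and 5.89 TPM, a mean of 7.435 ± 2.18 (SD, n = 2). Its TPM was 7.675 times that of Chat in replicate 1 and 8.791 times in replicate 2. The log2 difference of 2.90 ± 0.09 was far larger than its spread. Slc18a3 exceeded Slc5a7 too, by 1.49 ± 0.07 on the same scale. So the 3 genes that a cholinergic terminal needs stood in the same order in both libraries, Slc18a3 first, Slc5a7 next and Chat last.

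Slc18a3 and Chat form 1 locus. The single exon of Slc18a3 lies on the same strand inside the first intron of the Chat transcript Chat-201 (32460914 to 32465806, 4893 nt), and it starts 1107 nt downstream of the Chat-201 start. These positions are from GENCODE release M21, whose Chat-201 is 2858 nt long against 2810 nt in the deposited tables, so the edge of a Chat exon may have moved between releases. The RNA was not selected for poly(A), and reads of unspliced Chat RNA over the Slc18a3 exon cannot be told apart from reads of Slc18a3. Spliced Chat RNA shares no base with Slc18a3. On the opposite strand the antisense gene Gm2990 overlaps the 5′ end of Chat by 948 nt and had 40 and 100 counts.

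**Figure D2:**
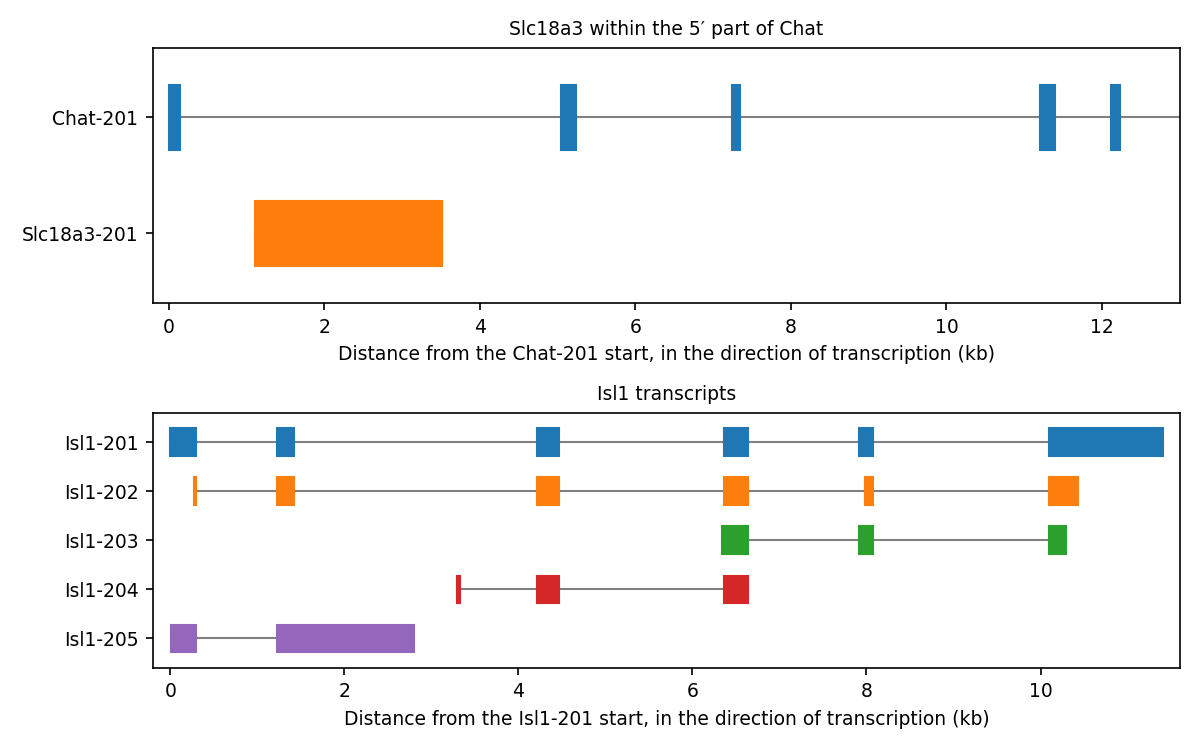
Exons as boxes and introns as lines, by distance in kb from the start of Chat-201 (upper panel, first part of the gene) and of full-length Isl1 (lower panel), in the direction of transcription. Slc18a3 sits between the first and second exon of Chat, and Isl1-204 consists of a short exon of its own and exons 3 and 4 of the full-length transcript.

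The start regions of both genes are shown because they lie close together yet the genes had different RNA levels. The sequences are from RefSeq (GRCm38.p6), 5′ to 3′ on the minus strand, and end just before the first transcribed base. Capitals mark matches on either strand to the motif CCAAT, to the GC box GGGCGG, to the letters TGACG that are found in cyclic AMP response elements, and to the TATA box letters TATAAA. No marked matches overlap.
Chat, chr14:32465990-32466159: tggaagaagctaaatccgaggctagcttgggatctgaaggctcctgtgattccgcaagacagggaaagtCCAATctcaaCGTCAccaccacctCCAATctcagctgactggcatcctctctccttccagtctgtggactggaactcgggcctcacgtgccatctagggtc
Slc18a3, chr14:32464851-32465100: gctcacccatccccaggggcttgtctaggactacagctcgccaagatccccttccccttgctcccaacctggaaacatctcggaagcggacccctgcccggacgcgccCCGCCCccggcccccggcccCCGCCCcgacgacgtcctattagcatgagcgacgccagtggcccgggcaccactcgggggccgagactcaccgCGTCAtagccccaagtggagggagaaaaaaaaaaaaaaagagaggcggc
The Chat stretch is shorter (170 bases) because GENCODE places the start of the gene 80 nt upstream of the RefSeq start. In the 250 bases before the RefSeq start, Chat had 2 CCAAT matches and 1 TGACG match and no GGGCGG, whereas Slc18a3 had 2 GGGCGG matches, 1 TGACG match and no CCAAT. Their GC content was 54.8% and 66.0%. Of 32851 windows of the same length in the RefSeq table, 33.8% held CCAAT, 32.7% GGGCGG, 17.8% TGACG and 12.4% TATAAA, and the median GC content was 52.4%. A match is a description of the letters and not a binding site.

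Ache (chromosome 5, 137287519 to 137294466, plus strand) had 9412 counts and 61.1 TPM in replicate 1 and 12724 counts and 40.25 TPM in replicate 2. Its mean of 50.7 ± 14.7 TPM (SD, n = 2) placed it at rank 727 of 21461 nuclear protein-coding genes. The enzyme is not particular to cholinergic cells, and cells that receive acetylcholine, other neurons, muscle and blood cells also make it. Ache lay above the next member, Prph, by 1.82 ± 0.24 on the log2 scale. Butyrylcholinesterase (Bche), a related enzyme that can also split acetylcholine, had 1.76 and 0.78 TPM, so Ache exceeded it 34.7-fold in replicate 1 and 51.6-fold in replicate 2. With gene counts set over the longest coding transcript these ratios were 63.2 and 53.6.

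Of 8 Ache transcripts listed, 3 had counts. Ache-201 took 70.5% and 74.9% of the gene's TPM, Ache-202 28.7% and 23.5%, and the intron-retaining Ache-208 0.81% and 1.65%. Ache-201 and Ache-202 share 2173 of their 2186 and 2176 bases and have the same 1842 coding bases, so their split says nothing about the enzyme's coding sequence. The short transcripts Ache-204 (262 nt) and Ache-205 (254 nt) had 0 counts, yet their posterior mean shares in replicate 1 were 7.99% and 10.95%. The deposited interval for Ache reached 95.1 TPM in replicate 1 and 51.2 in replicate 2. The long non-coding gene Gm42456 overlaps the Ache locus by 1144 nt on the other strand and was not analysed here.

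Of 10 other genes of acetylcholine supply and breakdown, 7 reached 1 TPM in both libraries, against 54.6% of all nuclear protein-coding genes. The highest supply acetyl groups in every cell type: Acly (ATP citrate lyase) had 63.8 and 44.95 TPM, the citrate carrier gene Slc25a1 64.4 and 43.5, and the pyruvate dehydrogenase gene Pdha1 41.8 and 27.9. The lowest were the anchors of acetylcholinesterase. Colq, which tethers the enzyme at the muscle endplate, had 0.13 and 0.12 TPM, and Prima1, which holds it in neuronal membranes, had 1.01 and 0.25 TPM from 49 and 25 counts. Slc10a4, a vesicle protein of cholinergic and monoamine neurons, had 3.15 and 1.63 TPM, between Slc5a7 and Chat in both libraries.

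The motor neuron factors differed among themselves, with Isl1 above 62.2% of nuclear protein-coding genes and Tbx20, Isl2 and Mnx1 below 1 TPM on average. Isl1 (chromosome 13, 116298281 to 116309689, minus strand) had 286 counts and 6.08 TPM in replicate 1 and 354 counts and 3.23 TPM in replicate 2, a mean of 4.655 ± 2.02 TPM (SD, n = 2). Its paralogue Isl2 (chromosome 9, 55538672 to 55546180, plus strand) had 56 and 60 counts, 0.44 and 0.23 TPM. Isl1 exceeded Isl2 by 3.43 ± 0.13 on the log2 scale. Isl1 is also made by sensory ganglion neurons and by several forebrain and endocrine cells, so it does not mark motor neurons alone.

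The TPM of Isl1 rested mainly on 1 short non-coding transcript. Isl1-204, a processed transcript of 588 nt with no coding sequence, held 112 of 286 counts in replicate 1 and 114 of 354 in replicate 2. Those 39.1% and 32.2% of the counts became 81.9% and 72.85% of the gene's TPM, because TPM divides by length. The full-length coding transcript (2516 nt) held 168 and 184 counts and had 0.93 and 0.5 TPM. Isl1-204 shares 547 of its 588 bases with the full-length transcript, so most reads of Isl1-204 also fit the full-length transcript, while 1969 of the 2516 bases of that transcript are not in Isl1-204. If all counts were placed on the full-length transcript, the gene would have 1.59 TPM in replicate 1 and 0.965 in replicate 2. Isl1 would then lie below Slc5a7 in the order of the members, and 5 rather than 6 members would reach 1 TPM in both libraries. Under that setting, which was chosen after the values were seen, Isl1 exceeded Isl2 by 1.65 on the log2 scale. Its ratio to Chat was 5.20 and 4.82 by TPM and 1.36 and 1.44 under that setting.

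A shorter coding form of Isl1 had counts in replicate 2 only. There it had 56.1 counts and 11.64% of the TPM, against 0 counts in replicate 1. It lacks 1318 of the 2516 bases of the full-length transcript, among them 69 coding bases (23 codons) at the start of exon 5. Its counts need not rest on this 69-base difference. The bases around this difference are shown from GENCODE M21 (GRCm38, minus strand, 5′ to 3′), with the part that the shorter form lacks in capitals (chr13:116301710-116301778).
Isl1 full-length form: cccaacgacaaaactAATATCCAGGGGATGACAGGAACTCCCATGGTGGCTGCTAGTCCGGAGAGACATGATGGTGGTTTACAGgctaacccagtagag
Isl1 shorter form: cccaacgacaaaactgctaacccagtagag
Both lines carry the same 15 bases on each side of the difference. Whether reads crossed this junction cannot be seen in the tables, and the posterior mean share of the shorter form was 1.91% in replicate 1 and 11.95% in replicate 2.

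Mnx1 (chromosome 5, 29473034 to 29478470, minus strand), the factor of somatic motor neurons and pancreas, had 0 counts in replicate 1 and 10 in replicate 2. The 0 allows up to 0.0202 TPM in replicate 1 (3 counts, for counting error only), and the 10 counts gave 0.03 TPM in replicate 2. With 3 counts taken for Mnx1 in replicate 1, Isl1 was 301.7-fold higher by TPM there, and it was 107.7-fold higher in replicate 2. Over the longest coding transcripts these ratios were 83.6 and 31.1. The deposited interval of Mnx1 in replicate 1 reached 0.0318 TPM, so neither 301.7 nor 83.6 is a lower limit. Tbx20 (chromosome 9, 24718138 to 24774303, minus strand), a T-box factor of cranial motor neurons and heart, had 520 and 514 counts, 1.04 and 0.51 TPM. It lay 0.25 ± 0.13 below Chat on the log2 scale, but in replicate 1 the deposited intervals of Chat (1.01 to 1.30 TPM) and Tbx20 (0.955 to 1.16 TPM) overlapped.

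The start regions of Isl1 and Mnx1 are shown as the pair of motor neuron factors with the most different levels, from RefSeq (GRCm38.p6), minus strand, with the motifs named above in capitals.
Isl1, chr13:116309690-116309938: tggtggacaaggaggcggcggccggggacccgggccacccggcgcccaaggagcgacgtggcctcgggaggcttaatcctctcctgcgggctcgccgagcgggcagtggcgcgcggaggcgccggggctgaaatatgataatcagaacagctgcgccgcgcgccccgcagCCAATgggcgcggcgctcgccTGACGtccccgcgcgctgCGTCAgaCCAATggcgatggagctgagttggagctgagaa
Mnx1, chr5:29478471-29478720: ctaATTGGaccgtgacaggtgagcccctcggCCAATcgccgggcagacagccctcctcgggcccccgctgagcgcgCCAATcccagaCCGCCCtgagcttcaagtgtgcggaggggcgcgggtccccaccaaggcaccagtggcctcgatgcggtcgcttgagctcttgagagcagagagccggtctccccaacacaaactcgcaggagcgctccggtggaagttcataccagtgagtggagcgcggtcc
Isl1 held 2 CCAAT and 2 TGACG matches and Mnx1 3 CCAAT and 1 GGGCGG. Each had 4 matches in all, and GC content was 71.2% and 66.4%. The Isl1 stretch lies before the start of the full-length transcript. Isl1-204, which held most of the TPM of Isl1, starts 3292 nt downstream of that start.

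Across 20 other transcription factors used by motor neurons or their progenitors, 10 reached 1 TPM in both libraries and 17 reached 0.5 TPM, the first against 54.6% of all nuclear protein-coding genes. The highest are shared with other cells: Lmo4 had 41.2 and 32.0 TPM, Olig2, also the factor of oligodendrocyte precursors, 19.3 and 11.7, and Foxp1 15.6 and 10.8. The homeodomain factor gene Phox2a had 1.13 and 0.7 TPM. The lowest were Nkx2-9, with 0 and 24 counts, and Gata3, with 0.63 and 0.66 TPM. The deposited posterior means of Gata3 were 3.73 and 5.89 TPM, with intervals that lie above its TPM in both libraries, so its low place holds for TPM and not for the posterior mean. Lhx3, which acts with Isl1 in somatic motor neurons and is also made by other brainstem neurons, had 2.16 TPM in replicate 1 and 0.45 in replicate 2. The length used for its TPM differed between the libraries. With counts scaled between the libraries as described below, the values were 261 and 104, a 2.49-fold difference.

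Prph (chromosome 15, 99055174 to 99058978, plus strand) encodes peripherin, an intermediate filament of neurons whose axons leave the brain. It had 2307 counts and 19.3 TPM in replicate 1 and 2448 counts and 10.04 TPM in replicate 2, a mean of 14.7 ± 6.56 (SD, n = 2), second only to Ache. Its TPM was 16.5 and 15.0 times that of Chat. Peripherin is shared by sensory and autonomic neurons, so Prph does not mark motor neurons alone. Which cells gave this ratio was not tested. Prph-201 held 97.2% and 98.2% of the TPM, and Prph-202, which is 96 nt longer in the tables (1865 against 1769 nt), the rest.

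The start region of Prph is shown because, of the members printed here, it alone holds a TATAAA match, 31 bases before the start (RefSeq, GRCm38.p6, plus strand).
Prph, chr15:99054924-99055173: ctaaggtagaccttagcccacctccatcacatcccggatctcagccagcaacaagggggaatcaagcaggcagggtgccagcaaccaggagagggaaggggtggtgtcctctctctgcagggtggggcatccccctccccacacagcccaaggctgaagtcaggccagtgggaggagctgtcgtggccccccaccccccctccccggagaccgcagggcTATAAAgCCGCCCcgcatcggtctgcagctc
Slc5a7 held TATAAA as well, 187 bases before its start. All 4 filament genes that can assemble with peripherin reached 1 TPM in both libraries, against 54.6% of all nuclear protein-coding genes. Nefl, the light neurofilament gene, was highest with 229.1 and 149.8 TPM, and Prph lay 3.72 ± 0.23 below it on the log2 scale. Ina had 78.0 and 41.55 TPM, Nefm 27.9 and 13.8, and Nefh 16.8 and 8.91. Prph lay between Nefm and Nefh in both libraries.

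Ret (chromosome 6, 118151745 to 118197718, minus strand) encodes the receptor tyrosine kinase for ligands of the GDNF family, which support motor, autonomic and some other neurons. It had 7145 counts and 13.3 TPM in replicate 1 and 8443 counts and 7.61 TPM in replicate 2, a mean of 10.45 ± 4.02 (SD, n = 2). It exceeded Chat 11.36-fold in both libraries. Ret-202 took 63.8% of the TPM in replicate 1 and 73.7% in replicate 2, and Ret-201 36.2% and 26.3%. Ret is known for a long and a short tail of the kinase. The 2 transcripts have other lengths in the tables (6064 and 7341 nt) than in GENCODE M21 (5456 and 4497 nt), so the tails were not assigned to them here.

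Ret signals together with a co-receptor that binds the ligand. Of 10 ligand and co-receptor genes 4 reached 1 TPM in both libraries, against 54.6% of all nuclear protein-coding genes. The co-receptor gene Gfra4 had 20.2 and 15.95 TPM, Gfra1 17.8 and 11.4, and Gfra2 12.8 and 7.2. Gfra3 had 0.7 and 0.17 TPM, and Gfral 0 and 4 counts. Ret lay 0.50 ± 0.11 below Gfra1 on the log2 scale, but with gene counts set over the longest coding transcript it lay 0.07 above, so their order depends on the transcript length used.

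Of the ligands, Nrtn (neurturin) was the highest, below the 3 leading co-receptors but above Gfra3 and Gfral, with 4.37 and 2.46 TPM, Artn had 0.18 and 0.2, and Gdnf itself 0.1 and 0.05 TPM from 27 and 28 counts. Pspn (persephin), the ligand that Gfra4 binds, had 0 counts in both libraries, which allows up to 0.228 TPM in replicate 1 and 0.102 in replicate 2. The growth factor gene Gdf15 had 0 and 57 counts. Downstream, all 13 adaptor and target genes of the receptor reached 1 TPM in both libraries, against 54.6% of all nuclear protein-coding genes. Plcg1 had 51.6 and 21.3 TPM, Src 37.65 and 25.5 and Dok4 30.9 and 22.45. The lowest were Frs2, at 4.07 and 2.21 TPM, and the transcription factor gene Etv1, at 4.64 and 3.5.

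**Figure D3:**
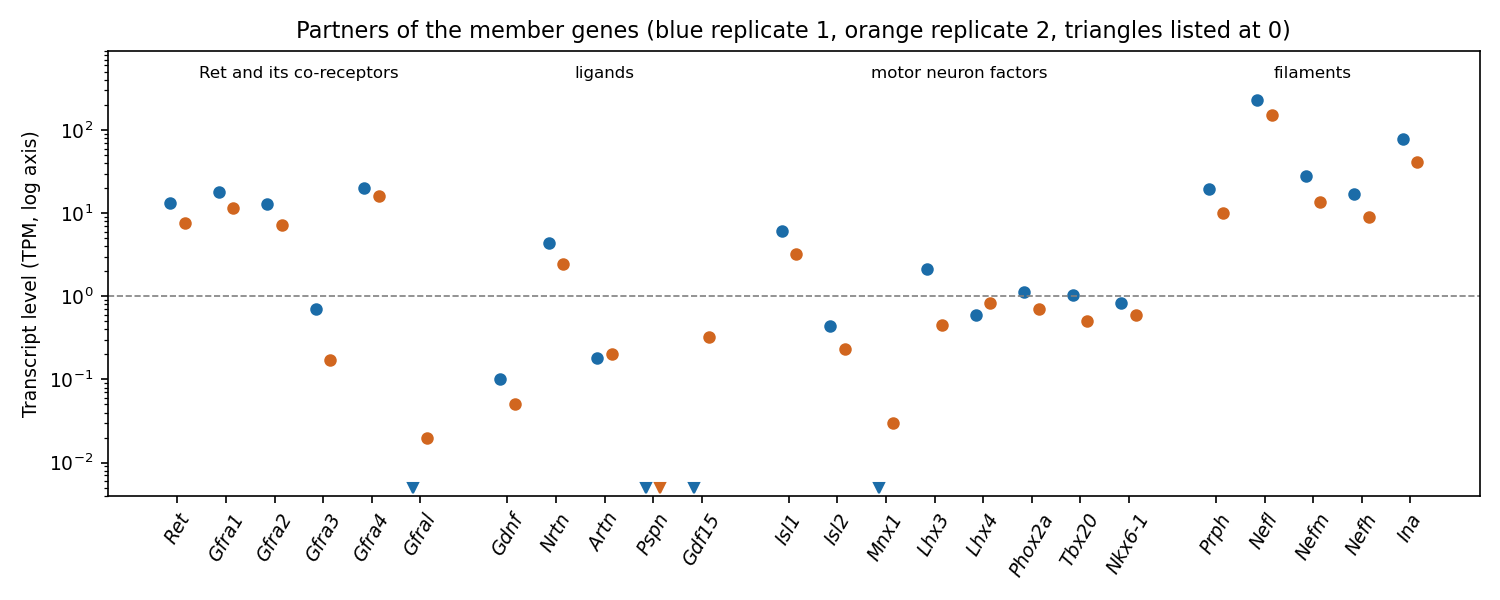
TPM on a log axis in replicate 1 (blue) and replicate 2 (orange) for Ret with its co-receptors and ligands, for motor neuron factors and for filament genes, with triangles for values listed at 0 and a dashed line at 1 TPM. The co-receptor genes Gfra4, Gfra1 and Gfra2 lie near Ret, the ligands other than Nrtn lie below 1 TPM, and Mnx1 lies far below Isl1.

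In the order of mean TPM (Ache, Prph, Ret, Slc18a3, Isl1, Slc5a7, Chat, Tbx20, Isl2, Mnx1) each of the 9 neighbouring pairs differed by more than the SD of its difference over the 2 libraries. The order came from the same values, so the direction of the steps was largely fixed, and an SD over 2 libraries is a weak bar. Over the longest coding transcript Isl1 (mean 1.275 TPM) lay below Slc5a7 (2.597). The smallest step was Chat over Tbx20, 1.19-fold. The steps Prph over Ret and Ret over Slc18a3 were 1.38-fold each. These comparisons are between genes within a library, so the shared TPM factor nearly cancels. At low levels it does not cancel fully, because 0.1 was added to each TPM. Isl2 over Mnx1, with Mnx1 at 0 and 0.03 TPM, was 2.433 in replicate 1 and 1.344 in replicate 2 on the log2 scale.

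**Figure D4:**
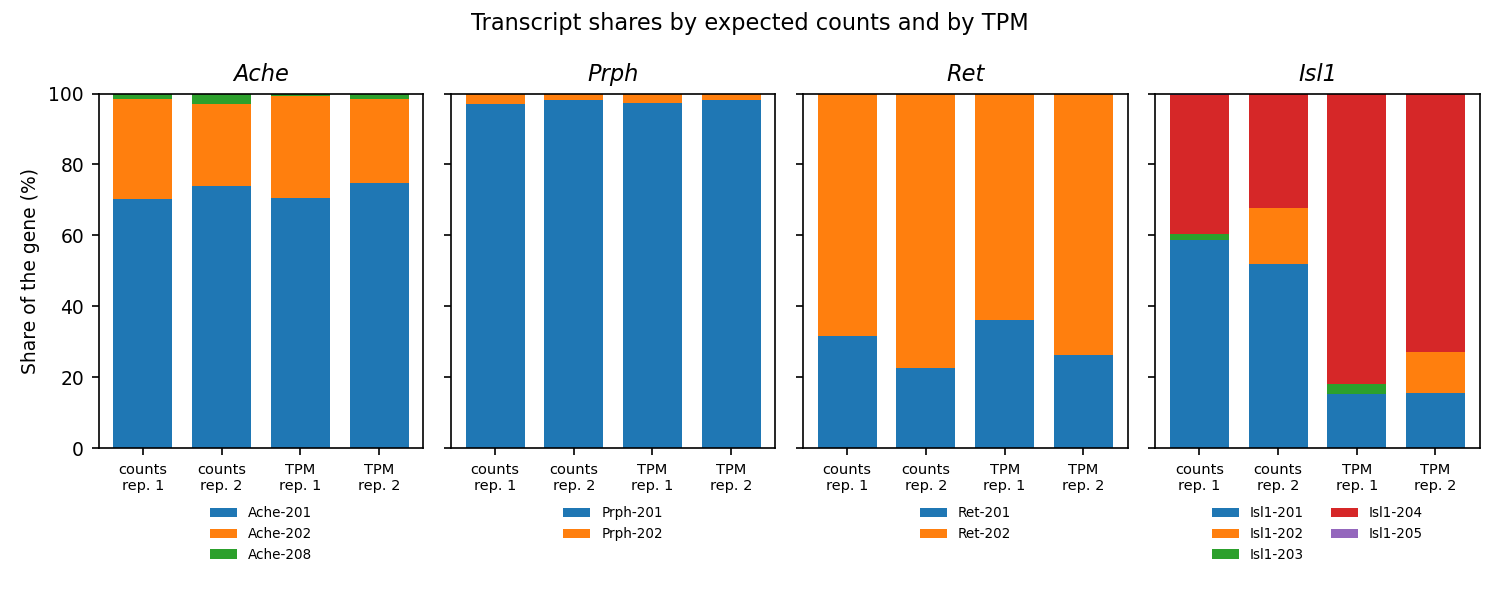
Share of each gene's expected counts (2 left bars) and of its TPM (2 right bars) held by each transcript in replicates 1 and 2, for the 4 genes with counts on more than 1 transcript. For Isl1, the short Isl1-204 takes 39.1% and 32.2% of the counts but 81.9% and 72.85% of the TPM, while counts and TPM give similar shares for Ache and Prph.

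The members were also compared between the libraries. Counts were scaled with TMM, and 9 members had mean counts of 10 or more (Mnx1, with a mean of 5, did not). None of the 9 differed 2-fold or more, against 14.9% of 17632 genes with such counts (9.35% higher in replicate 2 and 5.59% higher in replicate 1). With only 9 members this count does not set them apart from that share. Scaled counts were lower in replicate 2 for 9 of 9 members, against 49.3% of the 17632 genes. The median log2 ratio was −0.27 over the members and 0.01 over all. With spike-in totals the ratios of Ache (0.03) and Slc18a3 (0.01) changed sign, so 7 of 9 were then lower. Spike-in totals put the library ratio at 1.3274 rather than 1.4233, which raises the ratio of every gene. The share of all genes lower under that scaling was not counted.

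The largest ratios belonged to Tbx20 and Prph. Tbx20 had scaled counts of 620 and 431, a log2 ratio of −0.52 with a 95% counting interval (exact Clopper-Pearson) of −0.70 to −0.35. Prph had 2752 and 2052, a ratio of −0.42 (−0.51 to −0.34). Chat (−0.29), Ret (−0.27) and Slc5a7 (−0.21) also had counting intervals that left out 0. The intervals of Isl2, Isl1 and Slc18a3 included 0. Ache had −0.07 (−0.11 to −0.04). These intervals cover counting error only and not the variation between pools of animals. They hold for TMM scaling and were not computed for spike-in totals, where Chat came to −0.19, Ret to −0.17 and Slc5a7 to −0.11.

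**Figure D5:**
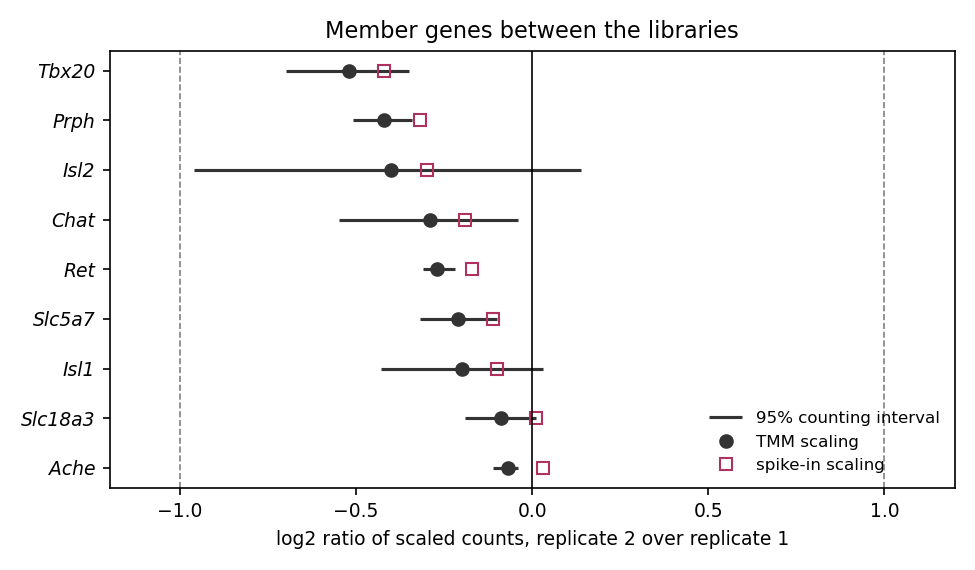
The log2 ratio of scaled counts, replicate 2 over replicate 1, for the 9 members with mean counts of 10 or more (circles, TMM scaling, with 95% counting intervals as lines; squares, spike-in scaling). All circles lie between −0.52 and −0.07 and inside the dashed 2-fold lines, and the squares of Ache and Slc18a3 lie just above 0.

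Markers of other cells that make some of these genes were measured beside them. Of 10 skeletal muscle genes 1 (Acta1) reached 1 TPM in both libraries and 3 (Acta1, Ckm and Myh8) in replicate 1, and their summed TPM was 51.2 in replicate 1 and 5.83 in replicate 2. Acta1, Ckm, Myh8 and Myh3 had log2 ratios of −2.95 to −1.49, while the endplate receptor gene Chrna1 had 0 counts in both and Chrnd 1 and 0. The list was higher in replicate 1, as the members were, and its part in the members' ratios was not tested. Red blood cell genes went the other way, with 6 of 6 higher in replicate 2. The 4 neurofilament genes were lower in replicate 2 (median −0.40), although Nefl, at −0.10, came to 0 with spike-in totals. Of 15 maturation genes compared 11 were lower in replicate 2, but Chodl and Epha4 changed sign with spike-in totals. Of 9 sensory ganglion genes compared 5 were lower, 3 of them 2-fold or more, although Pou4f1 changed sign with spike-in totals. Over all genes with mean counts of 10 or more, 49.3% were lower in replicate 2. In the other lists, 8 of 13 Ret adaptor and target genes and 5 of 8 Ret ligand and co-receptor genes were lower. So were 10 of 20 transcription factors, 4 of 10 acetylcholine partners and 2 of 8 channel and receptor genes. Of noradrenergic genes 1 of 5 was lower, of Schwann cell genes 3 of 8 and of forebrain cholinergic genes 2 of 4.

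Of 10 measured sensory ganglion genes 2 (Eya1 and Pou4f1) reached 1 TPM in both libraries. The share of all nuclear protein-coding genes, 54.6%, applies to this list and those that follow. The summed TPM of the sensory ganglion genes was 7.79 and 7.38, Scn10a had 0.03 and 0.01 TPM, and Mrgprd had 0 counts, which allows up to 0.0131 TPM. Of 8 Schwann cell genes 4 reached 1 TPM, among them Pmp22 (12.8 and 14.2) and Sox10 (9.44 and 7.23), the latter also made by oligodendrocyte lineage cells, while Gldn and Cdh19 were lowest. Noradrenergic neurons can make Ret as well, and all 5 genes of the noradrenergic list passed, though not all are particular to these neurons. Dbh had 3.9 and 3.16 TPM, Th 3.89 and 2.3 and Ddc 3.17 and 2.63.

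Markers of forebrain cholinergic neurons and of spinal cord levels were measured as well. Of 6 forebrain cholinergic genes Ngfr (18.65 and 10.2 TPM) and Gbx1 (3.16 and 1.25) passed, neither of them particular to the forebrain. Lhx8 and Dlx5 had 0 counts, which allows up to 0.0403 and 0.0346 TPM in replicate 1 (the deposited intervals there reached 0.179 and 0.0543). Of 8 posterior Hox genes, which mark spinal levels, none reached 1 TPM, 5 had 0 counts in both libraries and the sum of all 8 was 0.11 and 0.1 TPM.

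Of 16 genes of maturing motor neurons, few of which mark these cells alone, 13 were at 1 TPM or more in both libraries, against 54.6% of all nuclear protein-coding genes. The highest were the guidance receptor gene Epha4 (24.6 and 20.4 TPM), the chemokine receptor gene Cxcr4 (26.7 and 14.55) and Rbfox3 (13.96 and 10.1). Uts2 was lowest, with 2 and 0 counts, followed by Uts2b with 1.08 and 0.38 TPM. Chodl and Mmp9, which mark fast motor neurons in the adult, had 4.15 and 2.75 and 4.02 and 1.68 TPM, each above Chat in both libraries. Of 8 channel and receptor genes 6 passed, among them Kcnn3 (6.1 and 5.24), and Chrna2 (0.12 and 0.09) and Chrna5 (0.75 and 0.67) were lowest.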

How the data were processed

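Total RNA over 200 nt, depleted of ribosomal RNA, was sequenced in stranded pairs of 101 nt in 2 hindbrain libraries, per the labels. The build was mm10 with GENCODE M4, per the notes deposited with the files. Which aligner or quantifier was run is not given in the sources used here. The authors deposited expected counts, TPM with interval bounds of unstated level, and percent shares of each transcript, per the file headers. Whether counting used strand is not stated. Symbols and positions came from GENCODE M21 (same build) by Ensembl identifier, with 98.0% of genes matched, and 21 of 29 member transcripts had the same length there. Drgx found no match. Promoters were matched by symbol in the RefSeq table for 9 of 10 members (not Ret).

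Expected counts were rounded, scaled with TMM in edgeR 4.0.16 (R 4.3.3) and compared as log2 values with a prior count of 2. These steps were tried on data simulated with counting error only, with known changes in well-counted genes. That simulation lacks the spread between the real libraries and does not cover changes at low counts. Alternatives were scaling by spike-ins, by total or by DESeq2 1.42.0 size factors. Chi-square between libraries was 100.7 per degree of freedom, so they were counted as 2 samples. Named genes were the 10 members, genes of 13 pairs, and the 3 highest, 2 lowest and any at 0 counts of 14 lists, with others chosen after their values were seen; some genes under this rule are not reported here. Members, lists and pairs were chosen with earlier results of these data known.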

Additional observations from a re-analysis of the deposited data

How the results depend on the processing

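No paired analysis was possible because there is 1 group. The median level of the 10 members was 3.625 TPM, 15.04 when TPM was rescaled to nuclear protein-coding genes and 1.936 with gene counts over the longest coding transcript; the first follows from the smaller sum and the second from the length given to Isl1. Leaving out each replicate gave 2.595 and 4.655. With 1 replicate left out, 6 to 8 members and 76 to 87 of 134 partner genes reached 1 TPM, and the transcript count below was 3 to 3. The count of members at 1 TPM in both libraries ranged from 5 (2 TPM threshold, or longest coding transcript) to 9 (rescaled TPM). No member passed 2-fold under any of 4 scalings or either prior count, but 1 did with no filter on low counts, Mnx1 with 0 and 10 counts. Ret over Gfra1 changed from −0.50 to 0.07 on the log2 scale with the longest coding transcript. At 0.5 TPM 17 rather than 10 of 20 transcription factor genes passed, and 3 rather than 1 of 10 muscle genes, as also without replicate 2. At 2 TPM 1 rather than 2 passed in the sensory ganglion and in the forebrain list. The coding transcript was the highest for 3 of 4 genes by TPM and for 4 of 4 by counts. All 13 gene pairs differed beyond their spread under 5 settings, and with 1 library left out that spread could not be computed. Depth limits Mnx1 and Isl2 most.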
